A study of Mus musculus with 11 samples.

Results

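The 43 genes described here encode glucose transporters, the enzymes of glycolysis and lactate export, the enzymes of the pentose phosphate pathway, the oxygen-sensing factor HIF-1α with its prolyl hydroxylases, and other transcripts known as HIF targets. They were taken by symbol from a list of pathway members that was drawn up with earlier results of these data known, and all 43 were found among the 25562 gene symbols of the expression table. RNA sequencing had been run on 11 libraries of activated CD8+ T cells from spleens of C57BL/6 mice, with no genetic change named for any group. The study compared cells that received recombinant human acyloxyacyl hydrolase (AOAH, an enzyme that removes fatty acyl chains from lipopolysaccharide and other lipids), cells that received the arachidonoyl phosphatidylcholine PC16:0-20:4 (PC), and cells that received neither. The AOAH group (4 libraries) had His-tagged AOAH at 10 µg/mL with the ethanol control. The PC group (3 libraries) had PC at 60 µM with the protein buffer, 10% glycerol in PBS, and the vehicle group (4 libraries) had ethanol and that buffer. Per the labels' protocols, pretreatment ran for 22 h and stimulation through CD3 and CD28 for 24 h in every group, in medium with 10% serum and 50 µM 2-mercaptoethanol. No buffer is named for the AOAH libraries, so an effect of the glycerol buffer cannot be told apart from that of AOAH. The labels also disagree on whether AOAH was given before or during activation and on whether CD3 antibody was on plates or beads, and name medium with or without IL-2. The labels number the libraries by batch, 1 to 4, and PC has no batch 4. Whether each library is its own animal or culture is not said, so p-values speak only of how far these libraries spread, which may be technical.

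Glycolysis splits glucose into pyruvate, yields ATP without oxygen, and feeds the pentose phosphate pathway, which makes NADPH and the ribose of nucleotides. Naive T cells depend mostly on mitochondrial respiration, and stimulation through the T cell receptor and CD28 raises glucose uptake, glycolysis and lactate release through PI3K, mTORC1, MYC and HIF-1α. HIF-1α is hydroxylated by the EGLN prolyl hydroxylases when oxygen is present and is then degraded, so much of its control lies in protein stability. Stabilised HIF-1α binds DNA at short ACGTG or GCGTG elements and raises transcription of glycolytic genes, lactate export, mitophagy receptors and its own hydroxylase EGLN3.

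The libraries had 11423 to 11739 genes at 1 TPM (a length-corrected share of a library's transcripts) or more, and depth cannot be read from TPM. The cells carried CD8 T cell markers (Cd8a at 331 to 446 TPM) with Cd4 at 0.11 to 0.42 TPM. Summed markers of macrophages and monocytes reached at most 8.26 TPM, those of erythroid cells 1.78 TPM and those of neutrophils 0.13 TPM. Of 15 genes of dividing cells, 14 rose with AOAH and 15 fell with PC, with summed levels of 3675 to 3760 TPM with AOAH, 2944 to 3255 TPM with vehicle and 2176 to 2354 TPM with PC. The 10 CD8 T cell markers summed to 2706 to 2721 TPM with AOAH, 2881 to 2936 TPM with vehicle and 3373 to 3434 TPM with PC, with 1 higher and 6 lower with AOAH and 10 higher with PC. Over all genes tested, 13.1% were higher and 12.1% lower with AOAH, and 8.27% higher and 11.2% lower with PC (limma, adjusted p under 0.05). The part of the shifts in these markers in the results on the 43 genes was not tested. Fewer cells of a type and less RNA per cell cannot be told apart in bulk RNA.

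Most of the 43 transcripts were higher with AOAH, and a smaller group was lower with PC. The 43 genes together held 1.51 to 1.53% of all TPM with AOAH, 1.27 to 1.30% with vehicle and 1.17 to 1.20% with PC. The 3 groups did not overlap in this share, which takes Aldoa at a TPM level that is uncertain (described below). Most of that sum came from the 6 most abundant genes. These summed to 11540 to 11659 TPM with AOAH, 9757 to 9889 TPM with vehicle and 8880 to 9193 TPM with PC. With AOAH, 28 of the 43 rose, where 13.1% of the 11561 genes tested were called higher, and 0 fell, where 12.1% were called lower (limma on log2(TPM + 1), Benjamini-Hochberg adjusted p under 0.05). At an unadjusted p under 0.05, which 37.7% of all genes reached in either direction, 29 were higher and 2 lower (Mxi1 and Taldo1, named after their values were seen), and the authors' deposited table called 25 higher and 0 lower. The median log2 change of the 43 was 0.20 with AOAH, beside 0.01 over all genes tested. With PC, 15 fell, where 11.2% of 11628 genes were called lower, and 1 rose, where 8.27% were called higher. Their median log2 change was -0.14 with PC, beside -0.01 over all genes. The number that fell with PC dropped to 9 without vehicle 1 and to 9 without vehicle 3. The libraries of the groups did not overlap for 29 genes higher with AOAH (15.1% of all genes) and 1 lower, Taldo1 (13.7%), and for 6 higher (17.9%) and 20 lower (21.4%) with PC. Vehicle 1 and 3 were both above vehicle 2 and 4 for 23 of the 43, beside 32.8% of the 11561 genes. The PC comparison used vehicle 1 to 3 and shares them with the AOAH comparison, so the direct test of AOAH against PC, which shares none, is the one used to say how the treatments differed. All 28, and all 16 called with PC, had the same sign in every pair of libraries of 1 batch (4 pairs and 3 pairs). These are the libraries that gave the calls, so the shared sign is no separate support for them. Counts by role below have the same background: 13.1% of genes called higher and 12.1% lower with AOAH, 8.27% and 11.2% with PC.

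**Figure D1:**
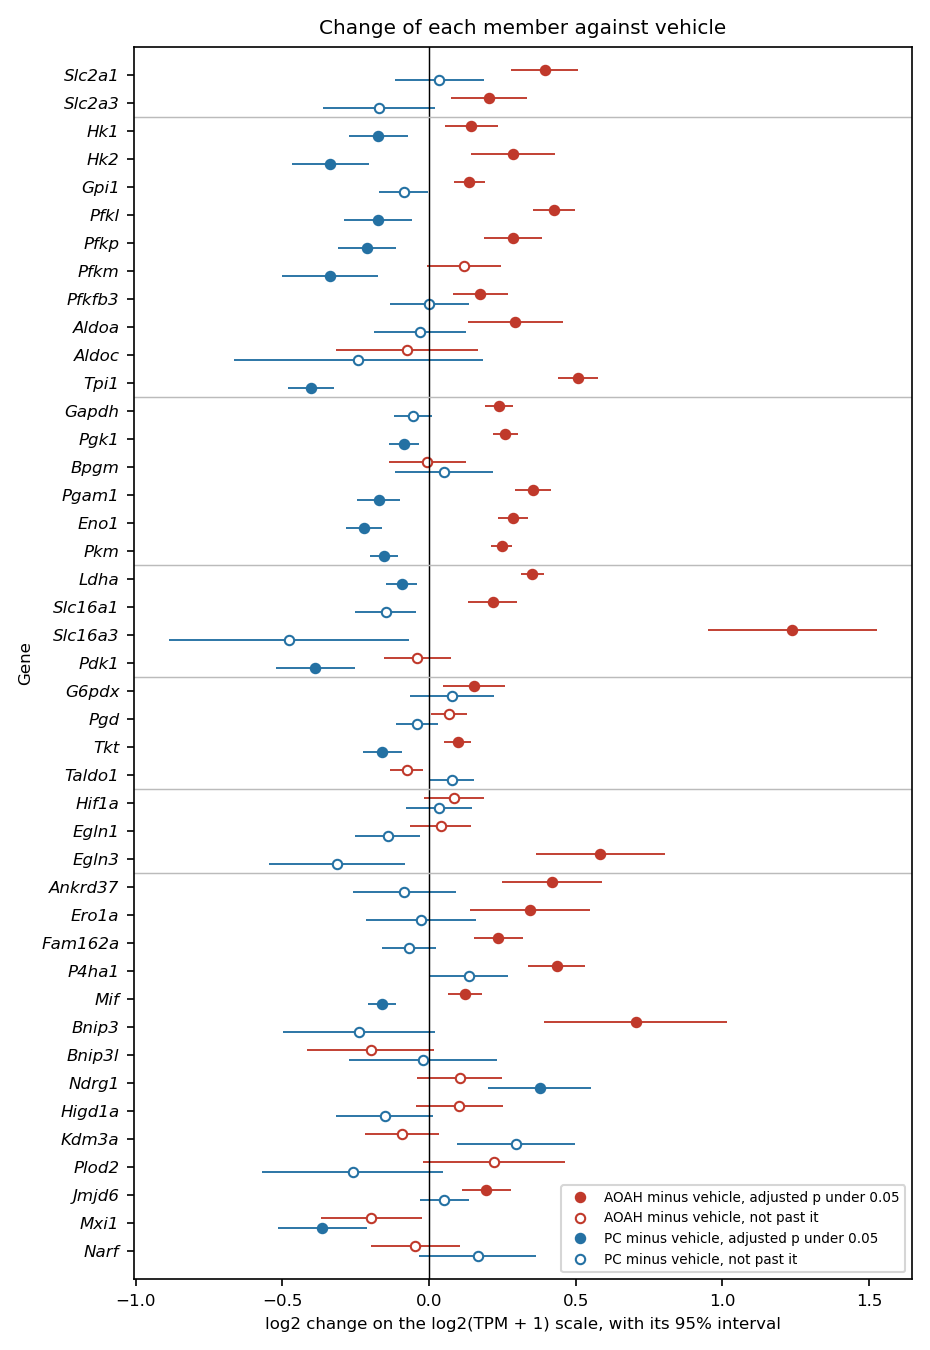
Fitted log2 changes of the 43 genes (vertical axis, by role) with 95% intervals for AOAH minus vehicle and PC minus vehicle; filled points passed the adjusted p threshold. Most AOAH points lie right of 0, with Slc16a3 farthest at 1.24, while most called PC points lie left of 0.

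Promoters of 4 of the genes that rose with AOAH are printed as examples of windows with and without the HIF element. Each is the 300 bases from 250 before to 50 after a RefSeq transcript start (RefSeq, GRCm38.p6; the authors' build was mm39), 5′ to 3′ on the gene's strand, with matches to ACGTG or GCGTG on either strand in capitals (read on the other strand, these appear as CACGT or CACGC; the E-box CACGTG overlaps them). Slc16a3 is shown because it had the largest rise of the 43. Ldha and Bnip3 are shown for their many matches, and Tpi1 because it changed in both comparisons and holds no match. The contrast among Ldha, Bnip3 and Tpi1 was thus set by the choice. Fam162a with 6 matches and Slc16a1 with 5 also rose and are not printed.
Slc16a3, chr11:120948817-120949116, + strand: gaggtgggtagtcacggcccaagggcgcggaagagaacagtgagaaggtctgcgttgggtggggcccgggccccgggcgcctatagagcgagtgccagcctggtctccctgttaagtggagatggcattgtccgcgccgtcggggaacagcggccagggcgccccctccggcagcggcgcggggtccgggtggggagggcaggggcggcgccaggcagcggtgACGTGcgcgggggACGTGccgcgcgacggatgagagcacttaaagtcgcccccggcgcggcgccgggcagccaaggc
Ldha, chr7:46845554-46845853, + strand: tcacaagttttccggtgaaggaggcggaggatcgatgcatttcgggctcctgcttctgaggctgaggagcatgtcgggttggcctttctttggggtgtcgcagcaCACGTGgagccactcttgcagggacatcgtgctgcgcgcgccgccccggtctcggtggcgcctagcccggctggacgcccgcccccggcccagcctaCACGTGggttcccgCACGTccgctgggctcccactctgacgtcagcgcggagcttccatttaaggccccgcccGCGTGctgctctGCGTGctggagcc
Bnip3, chr7:138909457-138909756, - strand: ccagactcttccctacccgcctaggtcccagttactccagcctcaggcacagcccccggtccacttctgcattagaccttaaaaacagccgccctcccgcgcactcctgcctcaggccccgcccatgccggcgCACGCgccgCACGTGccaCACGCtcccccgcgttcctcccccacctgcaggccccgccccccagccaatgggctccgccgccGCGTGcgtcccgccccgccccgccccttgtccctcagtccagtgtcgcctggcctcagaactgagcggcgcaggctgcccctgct
Tpi1, chr6:124814109-124814408, - strand: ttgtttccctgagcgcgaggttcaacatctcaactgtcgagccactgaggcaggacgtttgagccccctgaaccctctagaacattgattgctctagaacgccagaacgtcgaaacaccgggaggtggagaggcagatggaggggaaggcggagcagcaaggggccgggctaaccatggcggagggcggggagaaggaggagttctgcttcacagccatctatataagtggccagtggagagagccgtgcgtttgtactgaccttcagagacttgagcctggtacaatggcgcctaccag
The windows held 2 matches in Slc16a3, 7 in Ldha, 5 in Bnip3 and 0 in Tpi1. Each CACGTG counts as 2 matches, 1 on each strand, so Ldha and Bnip3 hold fewer separate sites than matches. Of the 39 members with a promoter in the table, 32 (82.1%) held at least 1 match, beside 65.3% of the 8525 promoters of tested genes and 43.8% of all 27025. The E-box was in 5 of 39 (12.8%), beside 10.9% of tested genes and 7.24% of all. Among members that rose with AOAH, 22 of 27 held a match (81.5%), and among those not called, 10 of 12 (83.3%). A match is a description of the sequence, and no match says only that these letters are not in this window.

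Both glucose transporters rose with AOAH. Slc2a1, the main activation-induced transporter GLUT1, stood at 53.6, 51.9, 51.3 and 53.4 TPM in AOAH 1 to 4, at 40.9, 37.4, 43.3 and 37.6 TPM in vehicle 1 to 4 and at 43.8, 40.6 and 40.2 TPM in PC 1 to 3. Every AOAH library was above every vehicle and PC library, and the PC libraries overlapped the vehicle libraries. Its log2 change was 0.39 ± 0.05 (SE; adjusted p = 0.000730) with AOAH and 0.03 ± 0.06 (0.748) with PC. Slc2a3 encodes GLUT3, a transporter of high glucose affinity. It measured 26.4, 26.4, 25.1 and 26.0 TPM in AOAH 1 to 4, 23.7, 20.2, 24.0 and 22.0 TPM in vehicle 1 to 4 and 20.3, 21.0 and 18.6 TPM in PC 1 to 3. The AOAH libraries lay above the others by a narrow margin, and the log2 change of 0.20 ± 0.06 (adjusted p = 0.0287) was not called under several alternatives (adjusted p = 0.0678 with batch as a block and 0.0562 to 0.129 with no filter or batches 1 to 3 only, or without AOAH 1, 2 or 4 or vehicle 2 or 4). With PC the Slc2a3 change was -0.17 ± 0.08 (adjusted p = 0.190). Slc2a1 made up 66.2 to 67.3% of the summed TPM of the 2 transporters with AOAH, 65.9 to 68.4% with PC and 63.2 to 64.9% with vehicle.

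**Figure D2:**
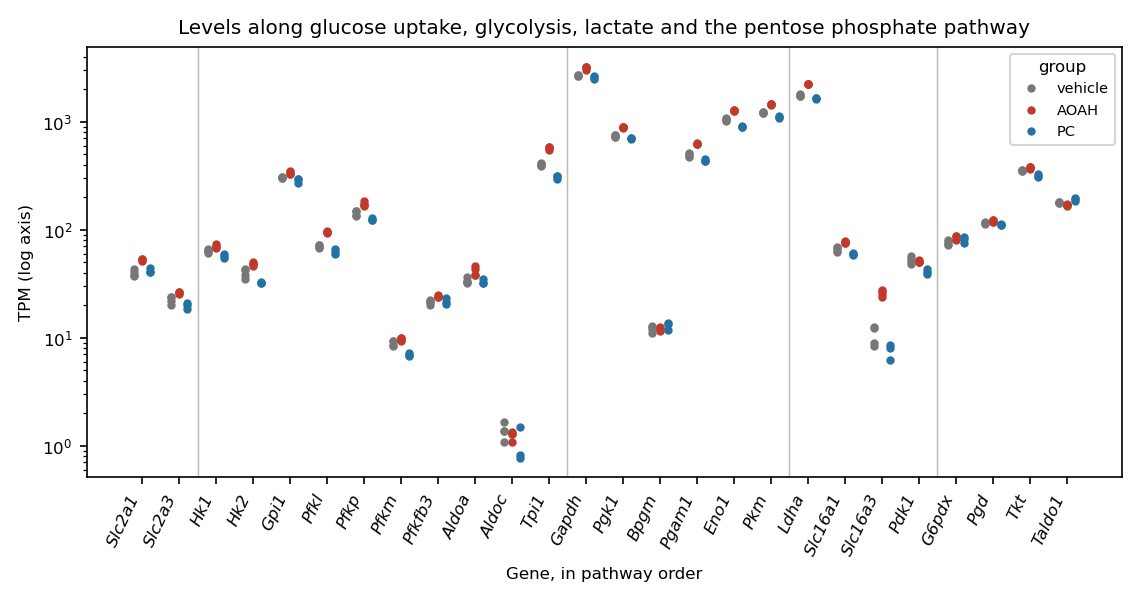
TPM (vertical log axis) of the transporter, glycolysis, lactate and pentose phosphate genes in pathway order (horizontal axis), with 1 point for each library, coloured by group. The widest gap between AOAH and vehicle is at Slc16a3, and AOAH and vehicle points span overlapping heights at Bpgm, Aldoc, Pdk1 and G6pdx.

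In upper glycolysis, which traps glucose and splits it into triose phosphates, 8 of 10 genes rose with AOAH (Hk1, Hk2, Gpi1, Pfkl, Pfkp, Pfkfb3, Aldoa and Tpi1) and 6 of 10 fell with PC (Hk1, Hk2, Pfkl, Pfkp, Pfkm and Tpi1). Among the 10, the largest change in both comparisons was at Tpi1, triosephosphate isomerase. Tpi1 stood at 579, 551, 583 and 571 TPM in AOAH 1 to 4, at 409, 393, 417 and 386 TPM in vehicle 1 to 4 and at 313, 297 and 312 TPM in PC 1 to 3. The 3 groups did not overlap. The log2 change was 0.51 ± 0.03 with AOAH (adjusted p = 1.91e-05) and -0.40 ± 0.03 with PC (adjusted p = 0.000899), and the mean was 1.86 times as high with AOAH as with PC.

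The phosphofructokinases catalyse the committed step of the pathway. Pfkl, the liver-type subunit, measured 96.6, 92.9, 95.3 and 96.1 TPM in AOAH 1 to 4, 72.4, 68.0, 72.5 and 69.5 TPM in vehicle 1 to 4 and 66.1, 60.0 and 62.4 TPM in PC 1 to 3. The AOAH libraries were far above the rest, and the PC libraries were just below vehicle. Its log2 change was 0.43 ± 0.03 with AOAH (adjusted p = 4.46e-05) and -0.17 ± 0.05 with PC (adjusted p = 0.0475), and the PC call was lost under several alternatives (adjusted p = 0.0544 to 0.136 with no filter, TMM rescaling or quantile normalization, or without PC 2 or 3 or vehicle 1 or 3). Pfkp, the platelet-type subunit and the most abundant of the 3 at a mean of 141 TPM with vehicle, read 171, 165, 183 and 172 TPM in AOAH 1 to 4, 147, 137, 148 and 134 TPM in vehicle 1 to 4 and 122, 129 and 122 TPM in PC 1 to 3. It was high in all AOAH libraries and low in all PC libraries. The log2 changes were 0.29 ± 0.04 (adjusted p = 0.00191) and -0.21 ± 0.04 (adjusted p = 0.0150). The PC call of Pfkp had an adjusted p of 0.0532 with batch as a block and 0.0513 to 0.0568 without PC 1 or 3 or vehicle 1 or 3. The muscle-type subunit Pfkm, at 8.85 ± 0.503 TPM (SD, n = 4) with vehicle, fell with PC by 0.34 on the log2 scale (adjusted p = 0.0165; 0.0505 with batch as a block and 0.0541 to 0.0621 without PC 1 or 2 or vehicle 1 or 3). With AOAH its log2 change was 0.12 ± 0.06 (adjusted p = 0.159; 0.0355 with quantile normalization).

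Hexokinase phosphorylates glucose and so holds it in the cell. Hk2, the isoform induced on activation, stood at 48.5, 46.5, 50.3 and 47.8 TPM in AOAH 1 to 4, at 42.2, 37.9, 42.8 and 35.1 TPM in vehicle 1 to 4 and at 31.8, 31.8 and 33.1 TPM in PC 1 to 3. Again the 3 groups were apart, and vehicle 2 and vehicle 4 were the lowest of their group. The log2 change of Hk2 was 0.29 ± 0.06 with AOAH (adjusted p = 0.0108) and -0.34 ± 0.06 with PC (adjusted p = 0.00821). The constitutive isoform Hk1 changed by 0.14 ± 0.04 with AOAH (adjusted p = 0.0285; 0.0553 to 0.0950 with no filter, quantile normalization or batches 1 to 3 only, or without AOAH 1 or 3 or vehicle 2 or 4) and by -0.17 ± 0.04 with PC (adjusted p = 0.0307; 0.0734 with batch as a block and 0.0759 to 0.1004 with no filter or without PC 1 or 2 or vehicle 1 or 3). Hk2 made up 39.7 to 41.5% of the summed Hk1 and Hk2 TPM with AOAH and 35.7 to 36.6% with PC. Gpi1, the isomerase that follows hexokinase, rose with AOAH by 0.14 (adjusted p = 0.00314), and Pfkfb3, whose product activates phosphofructokinase, by 0.18 (adjusted p = 0.0149; 0.0573 with batch as a block and 0.0958 with batches 1 to 3 only). Aldolase A (Aldoa) rose by 0.29 (adjusted p = 0.0167), and aldolase C (Aldoc), at 0.77 to 1.65 TPM, was called in neither comparison (log2 changes -0.08 ± 0.11 and -0.24 ± 0.18).

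The level of Aldoa in the table is uncertain. It was 33.6 TPM on average with vehicle, far below the enzymes around it, while the authors' deposited table for AOAH gives a base mean of 22776 normalized counts for the same symbol. That is 606 counts per TPM, where the median over 11033 genes was 38.1. The symbol stands beside a second identifier in that table, with a base mean of 3.63 counts. The authors' deposited table gives Aldoa a log2 fold change of 0.24 with AOAH (adjusted p = 1.92e-11) and 0.07 with PC (adjusted p = 0.313).

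In lower glycolysis, which turns triose phosphates into pyruvate and yields the ATP, 5 of 6 genes rose with AOAH (Gapdh, Pgk1, Pgam1, Eno1 and Pkm) and 4 fell with PC (Pgk1, Pgam1, Eno1 and Pkm). Pgam1, phosphoglycerate mutase, had the largest AOAH change of the 6. It read 624, 626, 633 and 623 TPM in AOAH 1 to 4, 500.1, 477, 510.0 and 471 TPM in vehicle 1 to 4 and 449.6, 433 and 437 TPM in PC 1 to 3. All 3 groups were separate, and AOAH libraries lay close together. Its log2 change was 0.36 ± 0.03 with AOAH (adjusted p = 5.22e-05) and -0.17 ± 0.03 with PC (adjusted p = 0.0112). Eno1, the enolase, measured 1285, 1269, 1294 and 1259 TPM in AOAH 1 to 4, 1077, 1019, 1067 and 1027 TPM in vehicle 1 to 4 and 900.1, 894 and 916 TPM in PC 1 to 3. It had the lowest PC p-value of the 6, with a log2 change of -0.22 ± 0.03 (adjusted p = 0.00250), and rose with AOAH by 0.29 (adjusted p = 5.55e-05).

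Pkm, pyruvate kinase, makes the pathway's last ATP. It stood at 1457, 1431, 1469.9 and 1461 TPM in AOAH 1 to 4, at 1215, 1234, 1238 and 1213 TPM in vehicle 1 to 4 and at 1097, 1093 and 1123 TPM in PC 1 to 3. The groups were apart and each was tight. The log2 change of Pkm was 0.25 ± 0.02 with AOAH (adjusted p = 2.74e-05) and -0.15 ± 0.02 with PC (adjusted p = 0.00314). Pgk1, phosphoglycerate kinase, read 885, 893, 885 and 876 TPM in AOAH 1 to 4, 752, 729, 746 and 726 TPM in vehicle 1 to 4 and 706, 690.1 and 702 TPM in PC 1 to 3. AOAH was well above vehicle (log2 0.26 ± 0.02, adjusted p = 3.68e-05), and PC was below it by a small step (log2 -0.09 ± 0.02, adjusted p = 0.0341). The PC call of Pgk1 was lost under several alternatives (adjusted p = 0.0519 with batch as a block and 0.0679 to 0.128 with no filter, TMM rescaling or quantile normalization, or without PC 1, 2 or 3 or vehicle 1 or 3). Gapdh, the most abundant of the 43 at 2684 ± 26.2 TPM (SD, n = 4) with vehicle and widely used as a reference gene, averaged 3166 ± 88.9 TPM with AOAH (log2 0.24 ± 0.02, adjusted p = 0.000108). With PC its change was -0.05 ± 0.03 (adjusted p = 0.223). Bpgm, which diverts an intermediate away from the pathway in red cells, was called in neither comparison (log2 -0.01 ± 0.06 and 0.05 ± 0.07). Eno1, Pgam1, Pgk1 and Tpi1 have near-copies in the table (Eno1b at 7.33 to 13.7 TPM, Pgam1-ps2 at 20.5 to 31.9, Pgk1-rs7 at 0 to 21.7 and Tpi-rs11 at 0 to 5.25), so a part of their reads could have been split between loci.

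Of the 4 genes of lactate and pyruvate handling, Ldha, Slc16a1 and Slc16a3 rose with AOAH, and Ldha and Pdk1 fell with PC. Slc16a3 encodes MCT4, the lactate exporter of highly glycolytic cells, and had the largest AOAH change of the 43. It stood at 26.8, 25.1, 27.4 and 23.9 TPM in AOAH 1 to 4, at 12.2, 8.29, 12.6 and 8.87 TPM in vehicle 1 to 4 and at 8.04, 6.24 and 8.51 TPM in PC 1 to 3. All AOAH libraries were above all others, vehicle 1 and 3 were above vehicle 2 and 4, and PC overlapped vehicle. The log2 change was 1.24 ± 0.13 with AOAH (adjusted p = 0.000241), a ratio of means of 2.46. With PC it was -0.48 ± 0.17 (adjusted p = 0.102), and it was called lower under 2 alternatives (adjusted p = 0.0245 with batch as a block and 0.0244 without vehicle 2).

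Slc16a1 encodes the broadly used transporter MCT1. It measured 75.7, 77.8, 76.8 and 75.4 TPM in AOAH 1 to 4, 68.0, 62.7, 68.5 and 63.5 TPM in vehicle 1 to 4 and 59.8, 60.8 and 58.7 TPM in PC 1 to 3. The AOAH libraries were highest and the PC libraries lowest, without overlap. The log2 change of Slc16a1 was 0.22 ± 0.04 with AOAH (adjusted p = 0.00295) and -0.15 ± 0.04 with PC (adjusted p = 0.0595; 0.0206 to 0.0493 with a filter at 5 TPM, 1 fit over all 11 libraries, quantile normalization or array weights, or without vehicle 2). Slc16a3 made up 24.1 to 26.3% of the 2 transporters' TPM with AOAH, 11.7 to 15.6% with vehicle and 9.31 to 12.7% with PC.

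Ldha, lactate dehydrogenase A, makes lactate from pyruvate. It read 2255, 2210.4, 2230.4 and 2248 TPM in AOAH 1 to 4, 1769, 1732, 1786 and 1717 TPM in vehicle 1 to 4 and 1670.0, 1614 and 1669.6 TPM in PC 1 to 3. The 3 groups were apart, with PC closest to vehicle. The log2 change of Ldha was 0.35 ± 0.02 with AOAH (adjusted p = 1.00e-05) and -0.09 ± 0.02 with PC (adjusted p = 0.0270). The PC call was lost under several alternatives (adjusted p = 0.0550 to 0.114 with no filter or TMM rescaling, or without PC 1, 2 or 3 or vehicle 1 or 3). Pdk1 encodes a kinase that inhibits pyruvate dehydrogenase. Pdk1 stood at 52.4, 49.8, 50.4 and 50.5 TPM in AOAH 1 to 4, at 53.1, 51.4, 56.8 and 47.9 TPM in vehicle 1 to 4 and at 39.0, 43.3 and 40.2 TPM in PC 1 to 3. AOAH and vehicle overlapped (log2 -0.04 ± 0.05, adjusted p = 0.606, 95% interval -0.15 to 0.07), and all PC libraries were lower (log2 -0.39 ± 0.06, adjusted p = 0.00488).

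Of the 4 pentose phosphate genes, Tkt and G6pdx rose with AOAH, and Tkt fell with PC. Tkt, the transketolase of the non-oxidative branch, read 384, 366, 381 and 382 TPM in AOAH 1 to 4, 352, 353, 353 and 356 TPM in vehicle 1 to 4 and 308, 313 and 327 TPM in PC 1 to 3. The groups did not overlap, and AOAH 2 was the lowest of its group. The log2 change was 0.10 ± 0.02 with AOAH (adjusted p = 0.00968; 0.0530 to 0.0617 with quantile normalization or batches 1 to 3 only) and -0.16 ± 0.03 with PC (adjusted p = 0.0101). G6pdx, the glucose-6-phosphate dehydrogenase that opens the pathway, measured 88.1, 82.0, 86.5 and 80.0 TPM in AOAH 1 to 4, 72.9, 77.1, 80.5 and 71.8 TPM in vehicle 1 to 4 and 74.96, 86.1 and 82.7 TPM in PC 1 to 3. AOAH 4 lay just below vehicle 3, and the log2 change of 0.15 ± 0.05 (adjusted p = 0.0404) was not called under several alternatives (adjusted p = 0.0592 to 0.110 with no filter, quantile normalization or batches 1 to 3 only, or without AOAH 1, 2 or 3 or vehicle 1, 2 or 4).

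Pgd, which makes a further NADPH of the oxidative branch, read 123, 118, 118 and 122 TPM in AOAH 1 to 4, 116, 112, 115 and 117 TPM in vehicle 1 to 4 and 111, 113 and 109 TPM in PC 1 to 3. All AOAH libraries were above all vehicle libraries by a small margin, and the log2 change of 0.07 ± 0.03 did not pass (adjusted p = 0.104). With PC it was -0.04 ± 0.03 (adjusted p = 0.391). Taldo1, transaldolase, had the opposite order. It stood at 169, 165, 174 and 169 TPM in AOAH 1 to 4, at 176, 182, 179 and 177 TPM in vehicle 1 to 4 and at 190.3, 194 and 183 TPM in PC 1 to 3. All AOAH libraries were below and all PC libraries above vehicle. The log2 changes were -0.08 ± 0.02 (adjusted p = 0.0502) and 0.08 ± 0.03 (adjusted p = 0.139), neither called. The AOAH change was called lower under several alternatives (adjusted p = 0.00665 to 0.0499 with a pseudocount of 0.1, a filter at 5 TPM, 1 fit over all 11 libraries, quantile normalization, rescaling without mitochondrial, receptor and histone genes or array weights, or without AOAH 3).

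Hif1a itself did not pass in either comparison, and Egln3, a HIF-induced prolyl hydroxylase, rose with AOAH. Hif1a measured 58.3, 63.6, 60.8 and 62.7 TPM in AOAH 1 to 4, 59.0, 55.4, 61.7 and 55.2 TPM in vehicle 1 to 4 and 59.7, 61.4 and 59.2 TPM in PC 1 to 3. All 3 groups overlapped. The log2 change was 0.08 ± 0.05 with AOAH (95% interval -0.02 to 0.19, adjusted p = 0.211) and 0.03 ± 0.05 with PC (95% interval -0.08 to 0.15, adjusted p = 0.663). Egln3 stood at 10.0, 11, 9.66 and 10.5 TPM in AOAH 1 to 4, at 7.23, 5.97, 7.65 and 5.46 TPM in vehicle 1 to 4 and at 5.18, 5.39 and 5.54 TPM in PC 1 to 3. The AOAH libraries were clearly highest, vehicle 4 lay within the range of the PC libraries, and the other vehicle libraries lay above PC and below AOAH. The log2 change of Egln3 was 0.58 ± 0.10 with AOAH (adjusted p = 0.00286) and -0.31 ± 0.10 with PC (adjusted p = 0.0676; 0.0215 to 0.0336 with array weights or without vehicle 2). Egln1 encodes PHD2, the main hydroxylase of HIF-1α. It read 25.9, 27.2, 28.4 and 28.4 TPM in AOAH 1 to 4, 26.1, 27.6, 27.4 and 25.7 TPM in vehicle 1 to 4 and 25.1, 24.2 and 24.0 TPM in PC 1 to 3. PC was lowest, and neither log2 change passed (0.04 ± 0.05, adjusted p = 0.576, and -0.14 ± 0.05, adjusted p = 0.0805).

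Of the 14 other HIF targets, 7 rose with AOAH (Ankrd37, Ero1a, Fam162a, P4ha1, Mif, Bnip3 and Jmjd6). With PC, 1 rose (Ndrg1) and 2 fell (Mif and Mxi1), where 8.27% of all genes were called higher and 11.2% lower. These PC counts are close to those shares. P4ha1, a collagen prolyl hydroxylase subunit, measured 35.2, 35.2, 35.3 and 34.9 TPM in AOAH 1 to 4, 27.4, 24.2, 25.4 and 26.0 TPM in vehicle 1 to 4 and 28.7, 27.6 and 28.4 TPM in PC 1 to 3. AOAH was highest, and PC was slightly above vehicle. P4ha1 had a log2 change of 0.44 ± 0.04 with AOAH (adjusted p = 0.000185) and of 0.14 ± 0.06 with PC (adjusted p = 0.145; 0.0477 with 1 fit over all 11 libraries). Fam162a, a mitochondrial protein of hypoxic cell death, read 187, 197, 186 and 186 TPM in AOAH 1 to 4, 151, 166, 159 and 166 TPM in vehicle 1 to 4 and 151, 152 and 149.9 TPM in PC 1 to 3. AOAH 2 was the highest library. Its log2 change was 0.24 ± 0.04 with AOAH (adjusted p = 0.00209) and -0.07 ± 0.04 with PC (adjusted p = 0.267). Ankrd37, a small ankyrin protein, stood at 9.12, 10.1, 10.1 and 8.53 TPM in AOAH 1 to 4, at 6.81, 7.36, 7.02 and 6.11 TPM in vehicle 1 to 4 and at 6.55, 7.04 and 6.23 TPM in PC 1 to 3. Ankrd37 was above all other libraries in each AOAH library (log2 0.42 ± 0.08, adjusted p = 0.00411), while the authors' deposited table did not call it (adjusted p = 0.250).

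Bnip3, a mitophagy receptor, was singled out after its values were seen because 1 vehicle library stood apart. Bnip3 read 14.7, 14.1, 15.9 and 14.6 TPM in AOAH 1 to 4, 7.61, 8.14, 7.41 and 12.4 TPM in vehicle 1 to 4 and 7.51, 5.47 and 6.31 TPM in PC 1 to 3. Vehicle 4 lay between the other vehicle libraries and the AOAH libraries. The log2 change with AOAH was 0.70 ± 0.14 (adjusted p = 0.00619), and 0.86 without vehicle 4 (adjusted p = 0.000207). Its relative Bnip3l had a log2 change of -0.20 ± 0.10 (adjusted p = 0.160). Of the 2 receptors' TPM, Bnip3 made up 33.2 to 37.8% with AOAH, 16.3 to 31.0% with vehicle and 14.4 to 19.8% with PC. Ero1a, an oxidase of protein folding, rose with AOAH by 0.34 (adjusted p = 0.0237; 0.0519 to 0.0644 with no filter or batches 1 to 3 only, or without AOAH 1 or 2 or vehicle 2), and the hydroxylase gene Jmjd6 by 0.20 (adjusted p = 0.00514).

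Mif, a cytokine abundant in T cells, rose with AOAH and fell with PC. It measured 2493, 2700.2, 2589 and 2553 TPM in AOAH 1 to 4, 2335, 2421, 2332 and 2410.4 TPM in vehicle 1 to 4 and 2129, 2099 and 2110.2 TPM in PC 1 to 3. The PC libraries were lowest and tightly grouped. Its log2 change was 0.12 ± 0.03 with AOAH (adjusted p = 0.00890) and -0.16 ± 0.02 with PC (adjusted p = 0.00301), with a near-copy, Mif-ps4, at 0.51 to 16.4 TPM. Mxi1, a MAX partner that opposes MYC, stood at 6.81, 7.19, 8.54 and 7.57 TPM in AOAH 1 to 4, at 8.80, 8.79, 9.39 and 8.06 TPM in vehicle 1 to 4 and at 6.90, 6.61 and 6.78 TPM in PC 1 to 3. All PC libraries were below vehicle (log2 -0.36 ± 0.06, adjusted p = 0.00993), and AOAH overlapped vehicle (log2 -0.20 ± 0.08, adjusted p = 0.0898; 0.0370 without AOAH 3). Ndrg1, a stress-induced cytoplasmic protein, read 9.57, 9.99, 8.97 and 9.65 TPM in AOAH 1 to 4, 9.32, 9.43, 8.43 and 8.09 TPM in vehicle 1 to 4 and 11.3, 12.9 and 11.97 TPM in PC 1 to 3. Each PC library was above all others (log2 0.38 ± 0.07, adjusted p = 0.0145), and the call was lost under 1 alternative (adjusted p = 0.0509 without PC 2). With AOAH, Ndrg1 had a log2 change of 0.10 ± 0.06 (adjusted p = 0.272). The histone demethylase Kdm3a had a log2 change of 0.30 ± 0.09 with PC (adjusted p = 0.0527; 0.00874 to 0.0475 with a filter at 5 TPM, 1 fit over all 11 libraries, TMM rescaling, quantile normalization, array weights or vehicle 4 included, or without PC 1). The remaining targets, Higd1a, Plod2, Bnip3l and Narf, were called in neither comparison; Plod2 was called higher with AOAH under 1 alternative (0.0422 without vehicle 1).

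**Figure D3:**
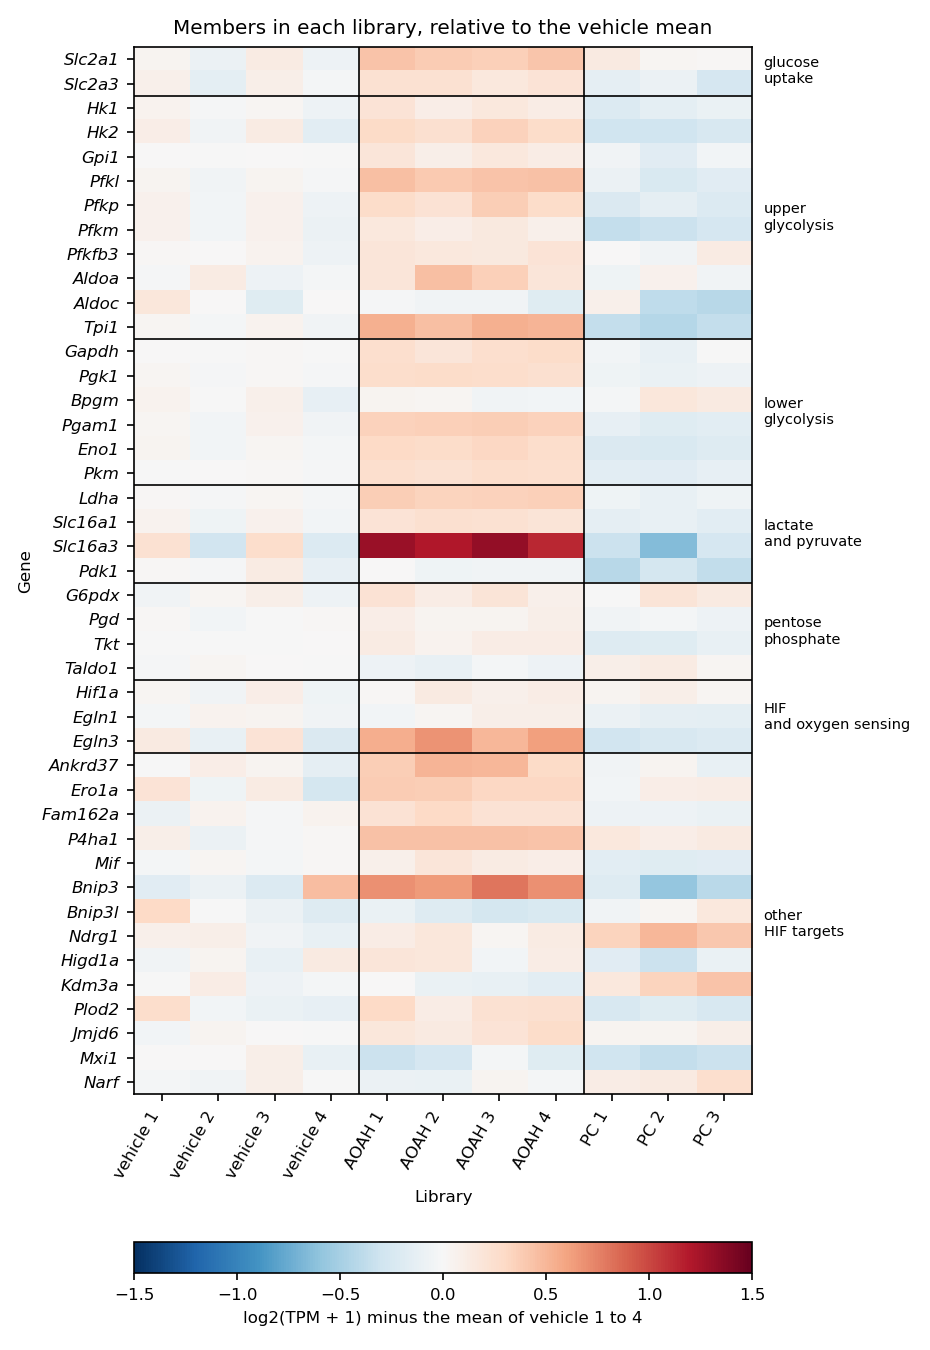
Each library's log2(TPM + 1) minus the vehicle mean, for the 43 genes (vertical axis, by role) in the 11 libraries (horizontal axis), red above and blue below the vehicle mean. The 4 AOAH libraries are red for most genes, most strongly at Slc16a3, and vehicle 4 is red at Bnip3.

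In the direct comparison of AOAH with PC, 33 of the 43 were higher with AOAH, where 24.3% of 11596 genes were called higher, and 5 were lower, where 21.5% were called lower. Likewise, 33 genes were higher and 5 lower without overlap between libraries (26.8% and 23.9% of all genes). Both transporters, 9 of 10 upper and 5 of 6 lower glycolytic genes, and all 4 lactate and pyruvate genes were higher. Slc16a3 differed most, by 1.65 ± 0.10 on the log2 scale (adjusted p = 1.10e-05), followed by Bnip3 at 1.10 ± 0.09 (6.46e-05), Tpi1 at 0.89 ± 0.03 (1.34e-06) and Egln3 at 0.82 ± 0.06 (3.43e-05). The 5 lower were Taldo1, Bnip3l, Ndrg1, Kdm3a and Narf, with log2 differences of -0.16, -0.24, -0.31, -0.40 and -0.21. Hif1a differed by 0.03 ± 0.04 (95% interval -0.06 to 0.12, adjusted p = 0.565). With batch as a block, which drops AOAH 4, 28 were called higher and 3 lower. The calls that depended on a setting were those of Pfkfb3 (adjusted p = 0.133 with batch as a block and 0.0593 to 0.136 with no filter or without AOAH 1, 2, 3 or 4 or PC 1 or 2), Pgd (0.0594 with batch as a block and 0.134 with quantile normalization), Egln1 (0.112 with batch as a block and 0.0530 to 0.0738 without AOAH 3 or 4 or PC 2 or 3), Bnip3l (0.0873 with batch as a block and 0.0654 with 1 fit over all 11 libraries), Higd1a (0.0578 with batch as a block), Jmjd6 (0.0508 with batch as a block and 0.0562 to 0.0671 with quantile normalization or without PC 1 or 2) and Narf (0.0989 with batch as a block and 0.0617 to 0.156 with no filter or quantile normalization, or without AOAH 1, 2 or 4 or PC 1, 2 or 3).

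**Figure D4:**
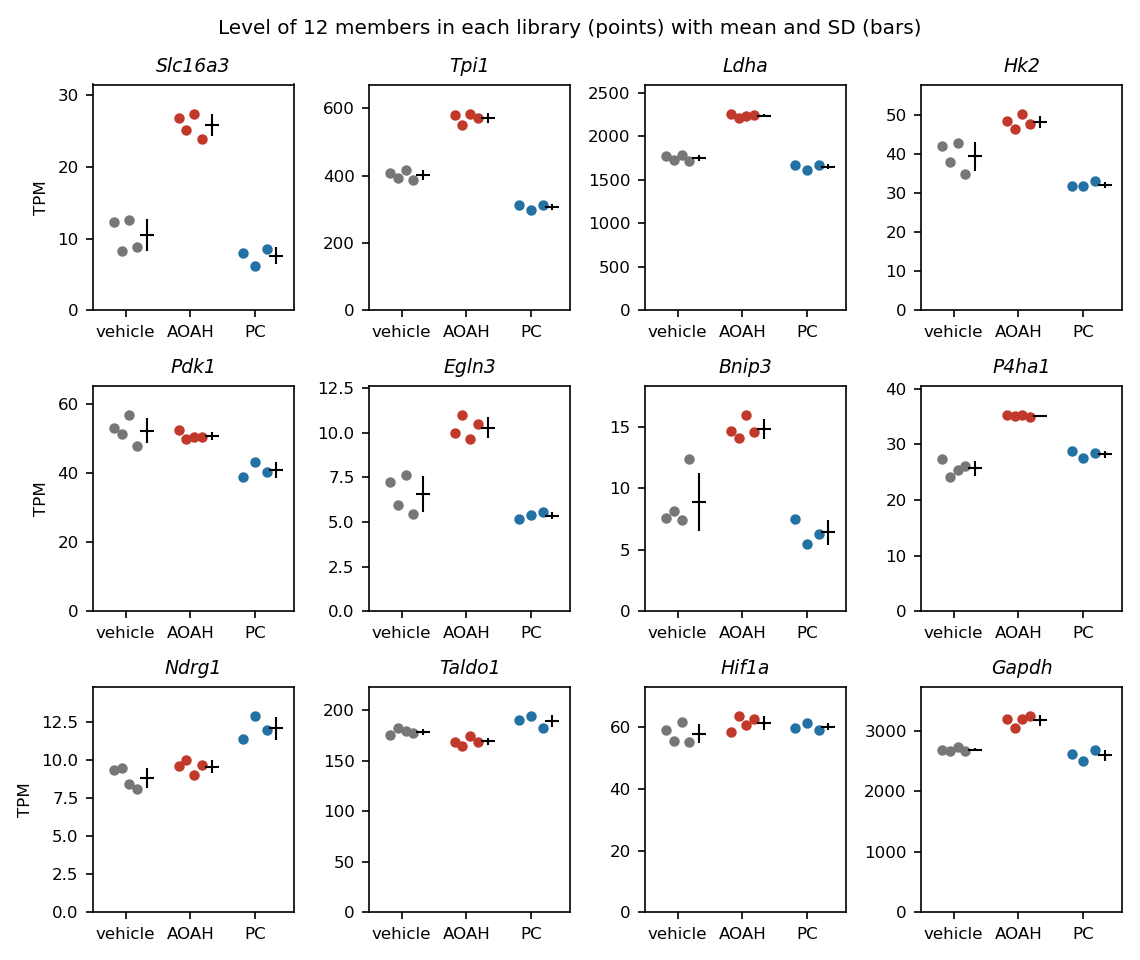
TPM (vertical axes from 0) of 12 of the genes in each vehicle, AOAH and PC library (points), with the group mean and SD beside them (crossed bars). Slc16a3, Tpi1 and Egln3 are highest in AOAH, Pdk1 is lowest in PC, Ndrg1 and Taldo1 are highest in PC, and the 3 groups overlap at Hif1a.

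Genes of the same pathways outside the 43 are read against the same shares of all genes: 13.1% called higher and 12.1% lower with AOAH, 8.27% and 11.2% with PC, and 24.3% and 21.5% for AOAH minus PC. Of 26 other glycolysis and glucose genes tested, 6 rose and 3 fell with AOAH, 2 rose and 2 fell with PC, and 10 were higher and 3 lower with AOAH than with PC. Txnip, an inhibitor of glucose uptake, fell with AOAH (log2 -1.05 ± 0.05, adjusted p = 1.00e-05) and rose with PC (0.42 ± 0.06, 0.00537), from 69.7 ± 3.67 TPM (SD, n = 4) with vehicle to 33.03 ± 1.32 TPM with AOAH and 92.7 ± 5.66 TPM (n = 3) with PC. Bsg, the chaperone of MCT1 and MCT4, rose in both (log2 0.20 ± 0.02 and 0.17 ± 0.02; adjusted p = 0.000254 and 0.00495). Of 7 other pentose phosphate genes, 2 were higher and 1 lower with AOAH than with PC. Prps1 rose with AOAH (log2 0.17 ± 0.04) and Prps2 fell with PC (-0.23 ± 0.05), both of them phosphoribosyl pyrophosphate synthetases.

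Of 25 other HIF pathway genes, 5 rose and 2 fell with AOAH, 4 rose and 4 fell with PC, and 8 were higher and 5 lower with AOAH than with PC. Ak4, a mitochondrial adenylate kinase, rose with AOAH by 1.12 ± 0.26 (adjusted p = 0.0146), and Vegfa by 0.61 ± 0.09 (adjusted p = 0.00177). Ccng2 changed by -0.76 ± 0.08 (adjusted p = 0.000254) and Kdm4b by -0.44 ± 0.07 (0.00281). With PC, Anxa2 rose by 0.78 ± 0.09 (0.00206), Ddit4 by 0.43 ± 0.05 (0.00206) and Bhlhe40 by 0.47 ± 0.06 (0.00258). Of 14 regulators of T cell glycolysis, 1 rose and 2 fell with AOAH, 2 rose and 2 fell with PC, and 4 were higher and 3 lower with AOAH than with PC. Klf2 moved most (-1.79 ± 0.10 with AOAH, 1.61e-05, and 1.18 ± 0.07 with PC, 0.000684), and Myc, a driver of glycolytic genes in activated T cells, had a log2 change of 0.06 ± 0.02 with AOAH (adjusted p = 0.0688) and fell by 0.10 ± 0.03 with PC (0.0435).

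The authors' deposited DESeq2 table for AOAH matched all 43 genes, and called 25 higher (8.45% of its 12492 genes) and 0 lower (8.68%). All 25 were also called here. G6pdx, Tkt and Ankrd37, called here, had adjusted p-values of 0.0754, 0.0689 and 0.250 in the authors' deposited table. Their deposited table for PC called 9 lower (7.65% of 11109) and 2 higher (5.74%), Ndrg1 and Kdm3a (adjusted p = 0.0156). Hk1, Pfkl, Pfkm, Pgk1, Ldha and Mxi1, lower here, were not called in the authors' deposited table.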

How the data were processed

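The authors quantified transcripts with RSEM and compared groups with DESeq2 on the build mm39, per the submitters' processing notes. Their deposited expression table holds log2 values of TPM plus 1, which were back-transformed to TPM. Their deposited comparison tables give normalized base mean counts as a signal, log2 fold changes, standard errors, test statistics (a score) and p-values, and were copied only where named. Repertoire tables were not used here.

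Groups came from the labels. Each comparison was fitted with limma 3.58.1 (R 4.3.3; trended, robust empirical Bayes, two-sided) on log2(TPM + 1) over the genes that averaged 1 TPM or more in its libraries, with Benjamini-Hochberg adjustment over all of them and a threshold of 0.05. A change on this scale understates that of low genes. The fit was tested on simulated data.

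The 43 genes, the other pathway lists and the markers were chosen with earlier results of these data known. Values in every library were given for members of role groups of at most 4 genes. Otherwise they were given for up to 3 members per role and comparison with the lowest p among those called. From other lists, up to 4 genes per comparison were named in the main results, not always those of lowest p. Ak4 ranked 7 by p among the other HIF pathway genes called with AOAH. Further genes, chosen after their values were seen, stand under other observations. Same-numbered libraries share a batch in the labels. Their deviations from group means correlated at -0.0033 on average over 10 pairs (-0.079 to 0.118). Over 30 pairs of different batches the average was 0.0011 (-0.125 to 0.140). Deviations from a group mean cancel within the group, so these averages depend on each other and cannot show whether batches matter. Batch as a block was an alternative, with other pseudocounts, filters, scalings and left-out libraries. Of the 43 genes, 4 are absent from the RefSeq promoter table.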

Additional observations from a re-analysis of the deposited data

Results flagged for a closer look

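In 4 of the 86 sets of 4 libraries tested (43 genes in the AOAH and the vehicle group), 1 library stood apart from the other 3 by Dixon's criterion for 4 values (critical value 0.829). Chance gives this in about 1 of 20 sets. Tkt stood at 365.75 TPM in AOAH 2, below 381.42 to 384.18 TPM in the other AOAH libraries. Fam162a stood at 197.16 TPM in AOAH 2, above 185.88 to 186.65 TPM in the others. Bnip3 stood at 12.38 TPM in vehicle 4, above 7.41 to 8.14 TPM in the other vehicle libraries. Plod2 stood at 2.78 TPM in vehicle 1, above 1.89 to 2.04 TPM in the others.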

How the results depend on the processing

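Of the calls of members, 22 of 28 with AOAH were kept under all 20 alternatives, 9 of 16 with PC under all 18 and 31 of 38 for AOAH minus PC under all 18. No scaling moved the median of all genes by over 0.1 on the log2 scale. With the batch number as a block, 26 members were higher and 0 lower with AOAH (2300 genes called in all), 1 higher and 12 lower with PC (1572 genes), and 28 higher and 3 lower for AOAH minus PC (4247 genes). With AOAH, 1 member was called lower with a pseudocount of 0.1, a filter at 5 TPM, 1 fit over all 11 libraries, quantile normalization, rescaling without mitochondrial, receptor and histone genes, or array weights, and 0 to 2 on leaving out 1 library. With batches 1 to 3 only, 1528 genes were called with AOAH in place of 2913, where fewer libraries entered. With PC, no filter left 1339 genes called in place of 2270, and 2 members were called higher with a filter at 5 TPM, TMM rescaling, quantile normalization, array weights or vehicle 4 included, and 3 with 1 fit over all 11 libraries. Leaving out 1 library gave 0 to 2 members higher, 9 to 18 lower and 1274 to 2083 genes called with PC. The cause was not tested for these.

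Only uncalled members changed sign. With AOAH, the log2 change of Bpgm was 0.00292 with TMM rescaling, 0.0295 with quantile normalization and -0.0481 to 0.0215 on leaving out 1 library, and that of Narf was 0.0215 with quantile normalization. With PC, Ero1a was at 0.0602 and Bnip3l at 0.0437 both with 1 fit over all 11 libraries and with vehicle 4 included. Pfkfb3 was at -0.000199 when rescaled without mitochondrial, receptor and histone genes and at -0.000616 when rescaled without the members. On leaving out 1 library, the PC change ran from -0.104 to 0.0338 for Ero1a, -0.0979 to 0.0933 for Bnip3l, -0.0201 to 0.0828 for Slc2a1, -0.0457 to 0.0376 for Pfkfb3, -0.0756 to 0.0273 for Aldoa and -0.00604 to 0.0703 for Hif1a. For AOAH minus PC, G6pdx was at -0.00107 and Hif1a at -0.00273 with quantile normalization, and G6pdx ran from -0.00578 to 0.0932 on leaving out 1 library. Depth cannot be read from TPM, and 3 or 4 libraries a group limit which small changes can be called.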

Other observations

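Further genes of the wider pathway lists passed the test; they were chosen after their values were seen. Pgm1, which links glycogen to glucose-6-phosphate, rose with AOAH (log2 change 0.23 ± 0.04, adjusted p = 0.00258) and fell with PC by 0.28 ± 0.05 (adjusted p = 0.0136). Gpd2, the mitochondrial glycerol-3-phosphate dehydrogenase, rose with AOAH (0.40 ± 0.08, adjusted p = 0.00567), and Eno3, an enolase known from muscle, rose with AOAH (0.25 ± 0.04, adjusted p = 0.00373). Pdk2, a relative of Pdk1, fell with AOAH by 0.43 ± 0.09 (adjusted p = 0.00957), and Pdk3 rose (0.18 ± 0.05, adjusted p = 0.0245). Nampt, which makes the NAD+ precursor nicotinamide mononucleotide, rose with AOAH (0.20 ± 0.04, adjusted p = 0.00554) and fell with PC by 0.26 ± 0.04 (adjusted p = 0.00495). Each value comes from limma.

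Summed markers of other cell types were low or rested on 1 gene. The B cell markers summed to 131 to 140.2 TPM with AOAH, 151 to 157 TPM with vehicle and 167 to 173 TPM with PC, and nearly all of it was Ighm, which changed by -0.18 ± 0.03 with AOAH (adjusted p = 0.00261) and 0.18 ± 0.03 with PC (adjusted p = 0.00770). The NK cell markers summed to 83.3 to 88.5 TPM with AOAH, 98.7 to 104 TPM with vehicle and 80.2 to 86.3 TPM with PC, mostly Eomes, which activated CD8 T cells also express. The CD4 T cell markers summed to 8.97 to 14.8 TPM and the dendritic cell markers to 2.51 to 3.51 TPM over all libraries. The cells' own Aoah transcript stood at 0 to 0.06 TPM.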
